A study of Mus musculus with 3 samples.

Results

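Parenchymal fibroblasts of the adult mouse lacrimal gland (LG), the tear-secreting gland, were taken as the stromal cells that carry *Crabp1*, *Cxcl14* and *Penk* RNA. Fibroblasts of this kind lie among the acini and ducts, lay down the interstitial matrix and part of the basement membrane, and send growth signals to the epithelium. *Crabp1* encodes a cytosolic carrier of retinoic acid, *Cxcl14* a chemokine and *Penk* proenkephalin, the precursor of the enkephalin peptides. *Fgf10*, a ligand secreted by mesenchyme and read by epithelial FGFR2b, is known for driving the budding and branching of the gland in the embryo.

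The cells came from 3 single-cell RNA libraries of C57BL/6J mice of 2 months, with no treatment or transgene named in the labels, of which 1 was female and 2, numbered 1 and 2, were male. Each was a pool of 6 glands from 3 mice. The female glands went through the Scripps core and the male ones through the Salk core on a separate day, so sex cannot be told apart from core or day, and sex was not tested. Values given for the 3 libraries below are always in the order female, male 1, male 2.

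Members were chosen by their UMI counts (unique molecular identifiers, each standing for 1 captured RNA molecule). A cell had more than 500 UMIs, more than 200 genes and under 15% mitochondrial UMIs. It carried at least 4 UMIs of *Col1a1*, *Col1a2*, *Col3a1*, *Dcn* and *Lum* together and at least 2 of *Crabp1*, *Cxcl14* and *Penk* together. It had at most 1 UMI of *Cxcl13*, at most 1 of *Pi16*, *Dpp4* and *Ackr3* together, none of *Pdgfrl* or *Fxyd6*, and none of *Ptprc*, *Epcam*, *Pecam1* or *Cdh5*, which mark immune, epithelial and endothelial cells. In all, 2119 of 19592 cells met these conditions (1227, 552 and 340 per library, or 14.8, 9.89 and 5.95% of the cells kept). They made up 69.7% of the 3042 cells that carried fibroblast matrix RNA without immune, epithelial or endothelial marker UMIs, and 69.8, 73.1 and 64.4% of them per library. How many of each cell type a dissociation yields and how many are in the gland cannot be told apart here.

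The other fibroblasts served for comparison. Adventitial-like fibroblasts, the stroma around vessels and ducts, had at least 2 UMIs of *Pi16*, *Dpp4* and *Ackr3* together, and numbered 132, 29 and 51 cells. *Cxcl13* fibroblasts had at least 2 UMIs of this B cell chemokine and numbered 71, 37 and 11. Cells with *Pdgfrl* or *Fxyd6* UMIs numbered 61, 12 and 10, and cells with 0 or 1 marker UMI and none of the other signs, called low-marker here, 207, 117 and 113.

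The called barcodes of the 3 libraries held 63066640, 40609390 and 44661762 UMIs. The parenchymal-like fibroblasts held 3120, 1563.5 and 1297 UMIs at the median, from 1315, 583 and 517.5 genes. Of their summed UMIs, 32.2, 54.4 and 63.7% were on tear-product genes, which the acini transcribe, and free RNA was estimated at 40.0, 63.9 and 74.7%. The estimate counts every tear-product UMI of the sum as free RNA, also those of mixed cells. The median member had 24.1, 45.5 and 44.5% tear-product UMIs, and 6, 8 and 23 members had over 80%. UMIs outside tear-product and mitochondrial genes are called own UMIs here, and a cell had a median of 2245, 820.5 and 690 of them. Levels are given as a gene's UMIs per 1000000 own UMIs, written CPM. Among the members 38, 41 and 25 were scored as doublets, 1 held 102557 UMIs, and no barcode was shared between libraries.

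The genes of the selection describe the members and support nothing further. *Crabp1* (chromosome 9, 54764748 to 54773110, plus strand, in GRCm38) had levels of 2533, 2962 and 3125 CPM and *Cxcl14* (chromosome 13, 56288643 to 56296551, minus strand) 2550, 2899 and 2983. *Penk* (chromosome 4, 4133531 to 4138819, minus strand) had 375, 2078 and 1329. *Penk* was thus the marker whose level was unlike between libraries, with the female library low, also over all cells of the fibroblast gate (317, 1695 and 948) and in the share of members with a UMI after thinning each cell to 600 own UMIs (19.1, 65.8 and 49.3%). All 3 markers were seen together in 35.1, 44.2 and 26.8% of members, and *Crabp1* with *Cxcl14* but without *Penk* in 44.3, 19.6 and 27.4%. Of all UMIs of these genes in the kept cells, the members held 87.2% for *Crabp1*, 81.2% for *Cxcl14* and 80.3% for *Penk*.

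The name was checked with *Col15a1* and *Fgf10*, which the selection did not use. *Col15a1* (ENSMUSG00000028339, chromosome 4, 47208161 to 47313167, plus strand) encodes a collagen at the border of basement membrane and interstitium. Its level was 1146, 787 and 644 CPM in parenchymal-like fibroblasts. It was 278, 613 and 352 in low-marker cells, 454, 282 and 214 in *Cxcl13* fibroblasts, 657, 511 and 159 in *Pdgfrl* *Fxyd6* cells and 92.2, 175 and 0 in adventitial-like fibroblasts. In each library the parenchymal-like level was the highest measured of the 5 fibroblast classes. The low-marker value in male library 1 was, however, close to the members' value in male library 2. The *Pdgfrl* *Fxyd6* sums of the male libraries held 9784 and 6305 own UMIs, and the *Cxcl13* sum of male library 2 held 9363. Their *Col15a1* levels rest on few UMIs, so the order against them is not shown there. Endothelial cells had 149, 277 and 386 CPM, immune cells 14.4, 6.92 and 4.08, and epithelial cells 1.41, 0 and 1.56. Of all *Col15a1* UMIs in kept cells, 72.4% were in the members (95% exact binomial interval 71.1 to 73.6%).

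*Fgf10* (ENSMUSG00000021732, chromosome 13, 118669791 to 118792115, plus strand) had a level of 394, 296 and 304 CPM in parenchymal-like fibroblasts. The next levels were 352, 282 and 107 in *Cxcl13* fibroblasts, 128, 204 and 127 in low-marker cells, 136, 204 and 0 in *Pdgfrl* *Fxyd6* cells and 111, 35 and 45.4 in adventitial-like ones. In male library 2 a count of 0 allows up to 476 CPM in *Pdgfrl* *Fxyd6* cells and 320 in *Cxcl13* fibroblasts. Both limits lie above the members' 304, so the order against these classes is not shown there. In male library 1 the limit of 307 CPM in *Pdgfrl* *Fxyd6* cells likewise lies above the members' 296. The difference from *Cxcl13* fibroblasts was not called in the comparison given below. Members and *Cxcl13* fibroblasts were neighbours in this order whose levels overlapped across libraries, whereas the adventitial-like levels lay below all 3 member values. Outside the fibroblasts *Fgf10* was nearly absent. Endothelial cells had 0 UMIs in every library, which allows up to 1.92, 13.6 and 23.2 CPM, and immune cells had 0, which allows up to 0.772, 10.4 and 12.2 (counting error only). The epithelium had 0.177 CPM in the female library and 0 in both male ones, which allows up to 1.27 and 1.56. The members held 1275 of all 1639 *Fgf10* UMIs in kept cells, or 77.8% (95% exact binomial interval 75.7 to 79.8%), and 77.6, 77.5 and 81.5% by library.

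**Figure D1:**
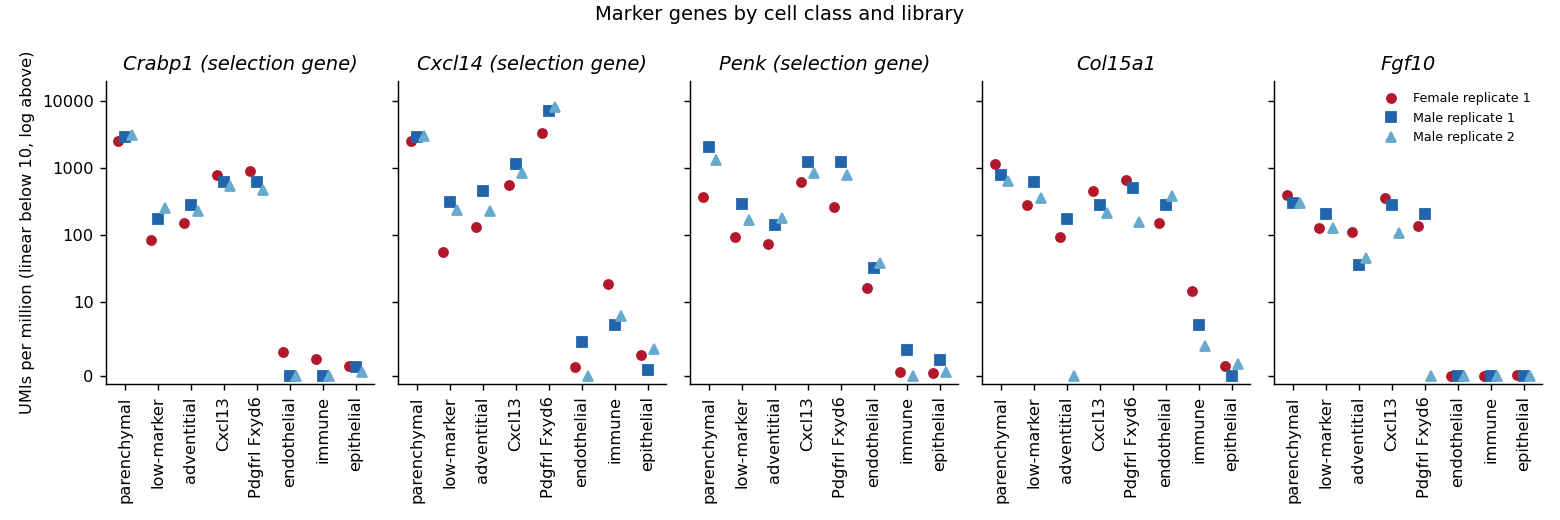
Levels of 5 marker genes (CPM of own UMIs, linear below 10 and log above) in 8 cell classes, with 1 point per library (red circle female, dark blue square male 1, light blue triangle male 2). *Col15a1* and *Fgf10* were not used to choose the cells, and their highest measured level in each library is in the parenchymal class. This order is not shown against *Pdgfrl* *Fxyd6* cells in the male libraries or *Cxcl13* fibroblasts in male library 2, whose sums were small. For *Fgf10*, a count of 0 in *Pdgfrl* *Fxyd6* cells allows up to 307 and 476 CPM in the male libraries. The *Fgf10* difference from *Cxcl13* fibroblasts was not called. *Fgf10* is at or near 0 in endothelial, immune and epithelial cells.

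*Rspo3* and *Rspo1*, secreted amplifiers of WNT signalling, were placed likewise. Members held 776 of 951 *Rspo3* UMIs (81.6%, interval 79.0 to 84.0%) and 310 of 383 *Rspo1* UMIs (80.9%, interval 76.6 to 84.8%). Other products were shared more widely with the rest of the gland. The share in members was 61.2% for *Igf1*, 66.1% for *Fgf7* and 41.8% for *Cxcl12*. As a base, members were 69.7% of the fibroblast-gate cells. A gene at an even level in all fibroblasts and absent elsewhere would give a share near that. The same base applies to the shares of *Col15a1* and *Fgf10* above, and the intervals cover counting error only.

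Because libraries differed in depth, each cell was thinned to 600 own UMIs before cells with a UMI were counted, which left 1207, 412 and 211 members and dropped 20, 140 and 129 shallower ones. *Fgf10* was then seen in 20.0% (95% exact interval 17.7 to 22.3%), 16.5% (13.1 to 20.4%) and 15.6% (11.0 to 21.3%) of members. These intervals overlap, whereas the unthinned shares of 51.1, 19.2 and 19.7% were far higher in the deeper female library. Epithelial cells, which should lack the ligand, had *Fgf10* in 0 of 1587, 1164 and 1027 thinned cells, which allows up to 0.189, 0.258 and 0.292% of cells with a UMI at this depth and sets no limit on cells that transcribe the gene. This was at a median of 2712, 1282 and 1320 own UMIs before thinning against 2256, 880.5 and 833 in the members counted. *Col15a1* was seen in 48.0, 34.7 and 23.7% of thinned members (83.0, 42.9 and 36.5% unthinned) and in 0.063, 0 and 0.097% of epithelial cells. At this depth most members without an *Fgf10* UMI cannot be told apart from cells that transcribe it at the mean level. The variance of *Fgf10* UMIs over thinned members was 1.10, 1.05 and 0.953 times the mean, where counting alone gives 1. At means of 0.234, 0.187 and 0.166 UMIs per cell, a mixture of cells with and without the RNA can also give a ratio near 1. The ratio thus cannot tell such a mixture from an even level.

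The limit of 2 marker UMIs cut through a continuous range of counts. Cells just inside it, with 2 marker UMIs, numbered 73, 63 and 64, and cells just outside, with 1, numbered 71, 53 and 47. *Col15a1* had 824, 681 and 571 CPM just inside and 494, 933 and 458 just outside, and *Fgf10* 224, 292 and 238 inside against 247, 395 and 212 outside. Neither gene thus changed level in the same direction in all 3 libraries at the limit. Members with only 2 or 3 marker UMIs made up 11.7, 24.5 and 37.4% of the total. Cells with no marker UMI were further away, with *Fgf10* at 78.4, 73.8 and 70.4 CPM. On the matrix sum, 1, 1 and 3 members had exactly 4 UMIs and 1, 1 and 2 cells just outside had 3.

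**Figure D2:**
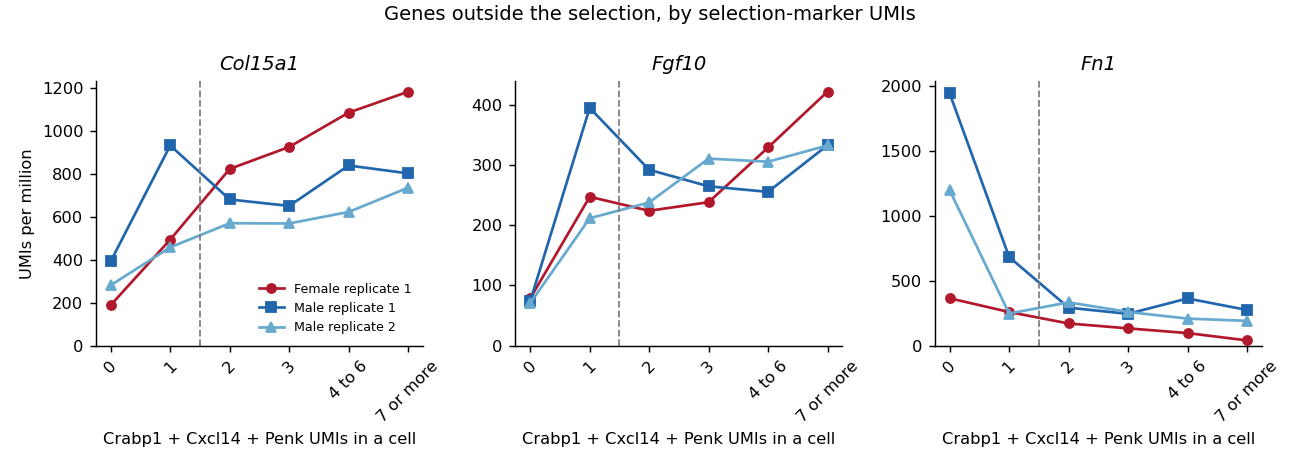
Levels of *Col15a1*, *Fgf10* and *Fn1* (CPM of own UMIs) in fibroblasts grouped by their summed *Crabp1*, *Cxcl14* and *Penk* UMIs, with 1 line per library and the selection limit as a dashed line. *Fgf10* lies between 70.4 and 78.4 CPM in cells with no marker UMI and between 333 and 422 in cells with 7 or more, while *Fn1* runs from 364 to 39.7 in the female library.

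The first comparison set parenchymal-like against adventitial-like fibroblasts with UMIs summed per library and class and the library as a block. Of 4442 genes tested outside the selection, 338 (7.61%) were called higher and 277 (6.24%) lower in the parenchymal-like cells (edgeR's quasi-likelihood test, Benjamini-Hochberg adjusted p under 0.05), and the median log2 difference over all genes was 0.03. All adjusted p-values below are from this test. Without the female library, which held the most cells, 198 were higher and 149 lower of 2805 tested. Over the 148 named genes that were called, 82 kept their call under every alternative in which they were tested. Cells of both classes were chosen on their own UMIs, and the lists used here were drawn up with earlier results of these data known, so that their direction is a description.

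Growth ligands and their modulators came first. *Fgf10* was higher than the 111, 35 and 45.4 CPM of adventitial-like cells (log2 difference 1.98 ± 0.31 SE, adjusted p = 8.73e-09). *Igf1*, the insulin-like growth factor, had 722, 1169 and 681 CPM against 231, 105 and 204 (1.94 ± 0.27, adjusted p = 3.26e-11), with no overlap between the classes. In contrast, *Vegfd*, a lymphatic growth factor, had 5.53, 13.5 and 20.3 against 89.5, 210 and 136 (−3.72 ± 0.59). Of the FGF, IGF, HGF and PDGF ligand list, 6 of 23 genes were tested, of which *Igf1* was called higher and *Vegfa*, *Vegfd* and *Kitl* lower (median −0.58). *Fgf7*, the other FGFR2b ligand, had 117, 63.2 and 44.6 against 59.7, 35.0 and 22.7 and was not called (0.87 ± 0.39, adjusted p = 0.139).

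Among WNT and BMP ligands and modulators, 4 of 9 tested genes were higher and 2 lower, with a median of 0.02. *Rspo3* had 196, 379 and 308 CPM against 27.1, 0 and 22.7 (3.14 ± 0.39, adjusted p = 5.37e-14). *Rspo1* had 101, 49.6 and 56.7 against only 2 UMIs in all adventitial-like cells, a pooled ratio of 20.1 with a counting interval of 5.52 to 167. *Rspo3* was thus above the adventitial-like level in every library. For *Rspo1*, a count of 0 in male adventitial-like cells allows up to 105 and 68.0 CPM, above the male members' levels. The male libraries alone therefore cannot show the *Rspo1* difference. *Fst*, the activin trap follistatin, was higher by 1.63 ± 0.27, whereas *Sfrp2*, a secreted frizzled-related protein, had 70.5, 54.1 and 85.1 against 366, 280 and 204 (−2.20 ± 0.28, adjusted p = 3.34e-13).

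The IGF-binding proteins, which hold and release IGF1, divided between the classes. *Igfbp7* had 3395, 2919 and 2630 CPM against 466, 876 and 204 (2.71 ± 0.25, adjusted p = 1.19e-24). *Igfbp5* had 566, 94.8 and 89.2 against 6444, 3854 and 5057 (−4.66 ± 0.25, adjusted p = 3.17e-71). *Igfbp3* was 822 in the parenchymal-like cells of the female library but 54.1 and 36.5 in the male ones, against 62.4, 0 and 0 (3.62 ± 0.40). A count of 0 in the adventitial-like cells allows up to 105 and 68.0 CPM, above the male members' levels, so the *Igfbp3* difference rests on the female library, and the call was lost without a library block (adjusted p = 0.2453). *Igfbp4* was not called (−0.13, adjusted p = 0.858).

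The matrix genes differed in kind. In the basement membrane list 7 of 11 tested genes were higher and 1 lower (median 0.93), and 2 of them, *Lama2* and *Lamc3*, kept the call in every alternative. *Lamc3*, a laminin γ chain, had 206, 404 and 332 CPM against 10.8, 105 and 0 (3.76 ± 0.43, adjusted p = 1.06e-16). *Lama2*, the laminin α2 chain, had 530, 537 and 409 against 247, 280 and 159 (1.10 ± 0.27, adjusted p = 0.000565), and the 2 classes did not overlap for either chain. *Nid1*, which links laminin to collagen IV, was lower (−0.90 ± 0.23). Of 12 collagens, 4 were higher and 1 lower (median 0.22). *Col4a1*, a chain of the basement membrane network, had 1216, 1882 and 1427 against 461, 491 and 363 (1.70 ± 0.25, adjusted p = 2.15e-10), and *Col4a2*, its partner from the same locus, was higher by 1.81 ± 0.28. *Col15a1* was higher by 3.49 ± 0.32 (adjusted p = 5.06e-25).

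Genes of elastic fibres and small proteoglycans gave 3 of 15 higher, 6 lower and 6 not called (median −0.53), and 4 of the 6 lower ones kept the call in every alternative. *Fbn1*, the microfibril protein fibrillin-1, had 273, 338 and 259 CPM against 1581, 2067 and 1678 (−2.58 ± 0.23, adjusted p = 3.86e-26), and *Mfap5*, a microfibril-associated protein, 182, 611 and 478 against 1982, 2908 and 2313 (−2.66 ± 0.23, adjusted p = 8.53e-28). *Emilin2* (−2.90 ± 0.26) and *Aspn* (−3.19 ± 0.28) were lower as well. *Bgn*, encoding the proteoglycan biglycan, was the exception that held in every alternative, with 1451, 1952 and 1694 against 339, 420 and 204 (2.35 ± 0.26). *Mgp*, an inhibitor of calcification, had 2025, 1435 and 1321 against 317, 0 and 0 (3.38 ± 0.29, adjusted p = 6.51e-29), where a count of 0 allows up to 105 and 68.0 in the male libraries.

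General fibroblast genes did not all sit at the same level in both classes. Of 14, 7 were higher and 4 lower (median 0.51). *Pdgfra*, the PDGF receptor that marks fibroblasts, had 779, 790 and 657 CPM against 382, 175 and 113 (1.50 ± 0.27), and *Apod*, a lipid-carrying lipocalin, 5052, 7495 and 8199 against 927, 1437 and 1020 (2.63 ± 0.24, adjusted p = 1.88e-26). *Igfbp6* (−2.01 ± 0.22) and *Fstl1* (−2.09 ± 0.23) were lower. Of the 15 adventitial markers that did not select that class, 15 were lower (median −3.26), and 12 kept the call in every alternative. *Fn1*, fibronectin, had 56.1, 302 and 231 against 3094, 2383 and 2653 (−4.14 ± 0.26, adjusted p = 3.03e-54). *Cd34* had 183, 282 and 251 against 1253, 1226 and 1020 (−2.35 ± 0.24), and the semaphorin *Sema3c* 27.7, 51.9 and 28.4 against 1296, 491 and 771 (−4.85 ± 0.30). Since this list and the class carry the same name, its direction is no independent evidence.

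**Figure D3:**
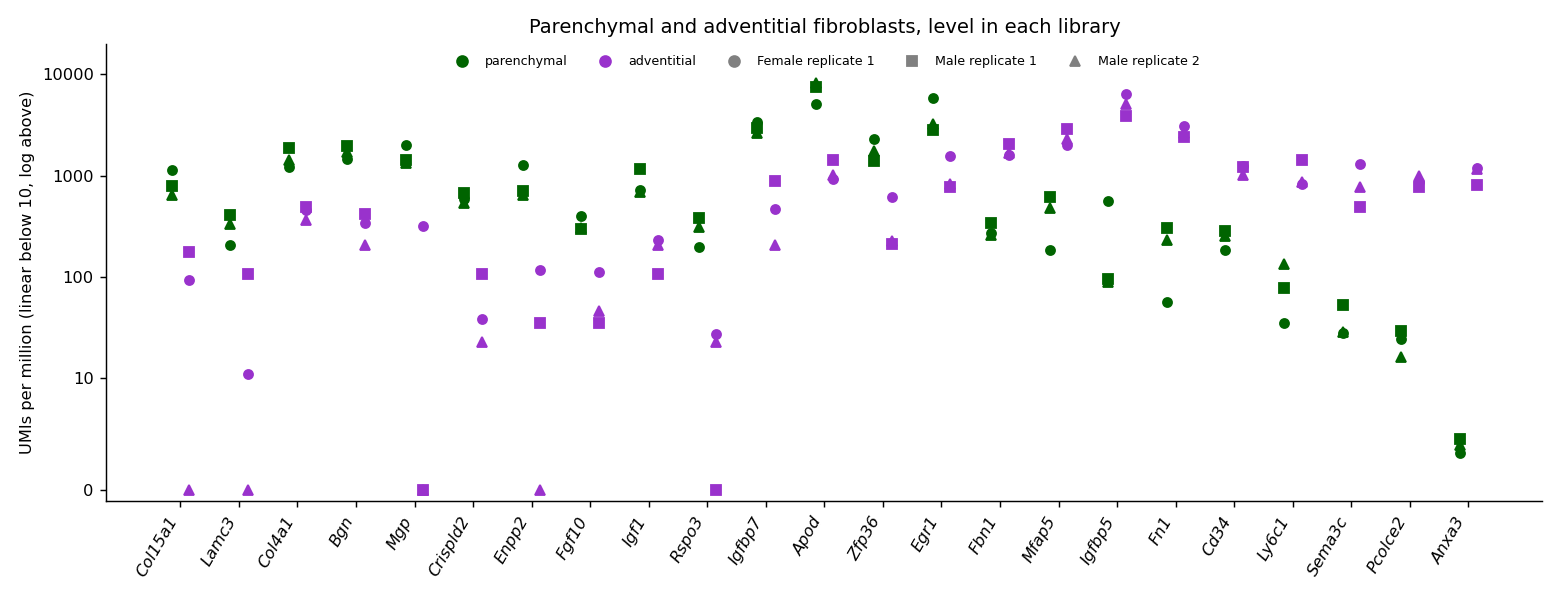
Levels of 23 genes (CPM of own UMIs, linear below 10 and log above) in parenchymal (green) and adventitial (purple) fibroblasts, with the library shown by the symbol. *Fbn1* lies at 259 to 338 CPM in the green class and at 1581 to 2067 in the purple one, and *Bgn* at 1451 to 1952 against 204 to 420.

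By size of the difference, the genes with the largest positive log2 differences included *Crispld2*, a secreted CAP-family protein, with 580, 677 and 535 CPM against 38, 105 and 22.7 (3.72 ± 0.35, adjusted p = 1.03e-23). *Enpp2*, autotaxin, which makes lysophosphatidic acid, had 1283, 702 and 644 against 117, 35 and 0 (3.67 ± 0.33, adjusted p = 7.08e-27), and members held 79.6% of its UMIs in the kept cells. *Fbln7*, a fibulin, had 191, 248 and 227 against 10.8, 0 and 22.7 (4.04 ± 0.48), and *Lsamp*, a GPI-anchored adhesion protein, 217, 223 and 223 against 16.3, 35 and 0 (3.69 ± 0.45). These 4 were low in every adventitial-like sum. *Plekha6* was higher by 3.73 ± 0.51, with 183, 54.1 and 60.8 against 13.6, 0 and 0, which the male libraries alone cannot show for the same reason as for *Igfbp3*. The lower arm held only 1 to 3 UMIs for *Tmem204* (pooled ratio 28.0, counting interval 4.98 to 1112), *Ndufa4l2* (23.5, 6.46 to 195), *Rasl11a* (15.7, 5.35 to 76.7) and 1 of the gene models named *Pakap* (32.4, 5.77 to 1287), which overlaps its neighbours.

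At the other end, *Anxa3*, an annexin on the adventitial list, had 3.32, 4.51 and 4.05 CPM in parenchymal-like cells against 1180, 806 and 1157 (−8.26 ± 0.38, adjusted p = 1.22e-100). *Smpd3*, a neutral sphingomyelinase, had 1.11, 4.51 and 0 against 811, 280 and 386 (−8.76 ± 0.45). *Fndc1* (−6.61 ± 0.35), *Opcml* (−6.61 ± 0.87), *Aif1l* (−6.56), *Limch1* (−6.03) and *Prkg2* (−5.92) followed. For 3 genes the members held a single UMI, and the adventitial-like level was higher by a pooled ratio of 1009 for *Efhd1* (178 to 40165), 570 for *Car8* (99.2 to 22820) and 562 for *Aldh1a3* (97.8 to 22515).

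*Aldh1a3* makes retinoic acid, the ligand that *Crabp1* carries. Its level was 0.369, 0 and 0 CPM in the members against 155, 245 and 204. Of 8 tested retinoid genes, 2 were higher, among them *Dhrs3*, which returns retinal to retinol (2.23 ± 0.44, likewise at 0 in the male adventitial-like cells), 1 was lower (*Aldh1a3*) and 5 were not called (median 0.02). *Aldh1a1*, another retinal dehydrogenase, was among the latter (0.25, adjusted p = 0.756). On the list of prohormone processing genes, 6 of 12 were tested, of which 1 was higher, 1 lower and 4 not called (median −0.26). *Cpe*, carboxypeptidase E, which trims the cleaved peptides, had 187, 201 and 174 against 35.3, 70.1 and 22.7 (2.27 ± 0.38), while the proprotein convertase *Pcsk6* had 35.8, 4.51 and 24.3 against 607, 526 and 680 (−4.55 ± 0.29).

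Of 12 chemokines and cytokines tested, 5 were higher and 1 lower (median 0.82), and only *Cxcl12* kept its call in every alternative. *Cxcl12*, which retains lymphocytes and stem cells through CXCR4, had 2565, 1304 and 1496 CPM against 857, 666 and 590 (1.37 ± 0.24, adjusted p = 2.77e-07). *Ccl11*, the eosinophil chemokine eotaxin, was higher by 0.94 ± 0.24, and *Ccl2* (1.17 ± 0.27) and *Cxcl10* (1.62 ± 0.29) with it. *Ccl8* was lower by the same test (−1.01 ± 0.29, adjusted p = 0.00579) but 0.17 after thinning. Complement genes went both ways. *C2* (1.98 ± 0.31) was higher, whereas *C4b* (−1.33 ± 0.36, lower in 2 of 3 libraries) and, from the adventitial list, *C3* (−1.78 ± 0.23) were lower.

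The immediate early and stress genes, induced within minutes of a stimulus or of tissue digestion, made up the list with the most calls, with 18 of 25 higher and 1 lower (median 1.49). *Egr1* had 5791, 2811 and 3222 CPM against 1554, 771 and 816 (1.93 ± 0.24), *Fos* 3736, 4851 and 4328 against 1530, 1191 and 1315 (1.66), and *Gadd45b*, a DNA damage response gene, 608, 1042 and 884 against 67.8, 140 and 113 (3.04 ± 0.30). No library of one class reached the other for these 3 genes. *Zfp36*, which speeds the decay of cytokine RNA, was higher by 2.30 ± 0.26, while *Atf3* was lower (−0.82). In all, 11 of the 18 kept the call in every alternative and 16 with each library left out.

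Further lists held calls as well. Of 9 tested adipogenic and lipid genes 5 were higher and 1 lower (median 1.19), among them *Lpl*, lipoprotein lipase (1.50 ± 0.25), *Apoe* (2751, 5476 and 5840 CPM against 1266, 946 and 658, or 2.16) and *Ptges*, a prostaglandin E synthase (2.69 ± 0.49). The list of steroid and nuclear hormone receptors and related genes had 9 tested, of which 5 were higher and none lower (median 1.03). The 5 were *Nr1d1*, *Nr2f1*, *Nr2f2*, *Hsd11b1* and *Tsc22d3*, so not all were receptors. *Nr2f1* (1.94 ± 0.30) and the glucocorticoid target *Tsc22d3* (1.58 ± 0.32) were called in every alternative. Among 17 mesenchymal transcription factors 3 were higher and 3 lower, and *Cebpb* (1.50 ± 0.26) and *Cebpd* (1.34 ± 0.23) were among those that held throughout. Signal receptors gave 4 higher and 4 lower of 18, including the TGFβ receptor *Tgfbr2* (−1.55 ± 0.26). Of 19 interferon-stimulated and MHC genes 4 were higher, *Irf1* in every alternative (2.22 ± 0.32), and of 5 fibrogenic markers *Col12a1* was higher (2.05 ± 0.39) and *Acta2* lower.

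Markers of other cells were low in the members but not absent. The summed level of 14 acinar markers was 537, 1548 and 2099 CPM, against 380, 2082 and 3326 expected from free RNA and 816, 1787 and 2608 in adventitial-like cells. Of 11 duct and myoepithelial markers the sum was 27.3, 60.9 and 68.9 (287, 35.0 and 386 in adventitial-like cells), with *Oxtr* and *Krt15* at 0. For 13 endothelial markers the sum was 215, 345 and 373, above the 90.5, 138 and 149 expected from free RNA, and for 10 mural markers 132, 156 and 138, above the expected 18.1, 25.2 and 24.9. For 18 immune markers it was 633, 280 and 417, below the expected 896, 906 and 1096. The Schwann cell sum of 423, 537 and 486 was nearly all *Scn7a* (391, 512 and 450), with *Gfra3* and *Foxd3* at 0, and 8 cycling genes summed to 8.49, 102 and 20.3. Of these lists, *Fxyd3*, *Tek* and *Mustn1* were called lower and *H2-Aa* higher in the parenchymal-like cells. The part of free RNA and of mixed cells in single calls was not tested.

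**Figure D4:**
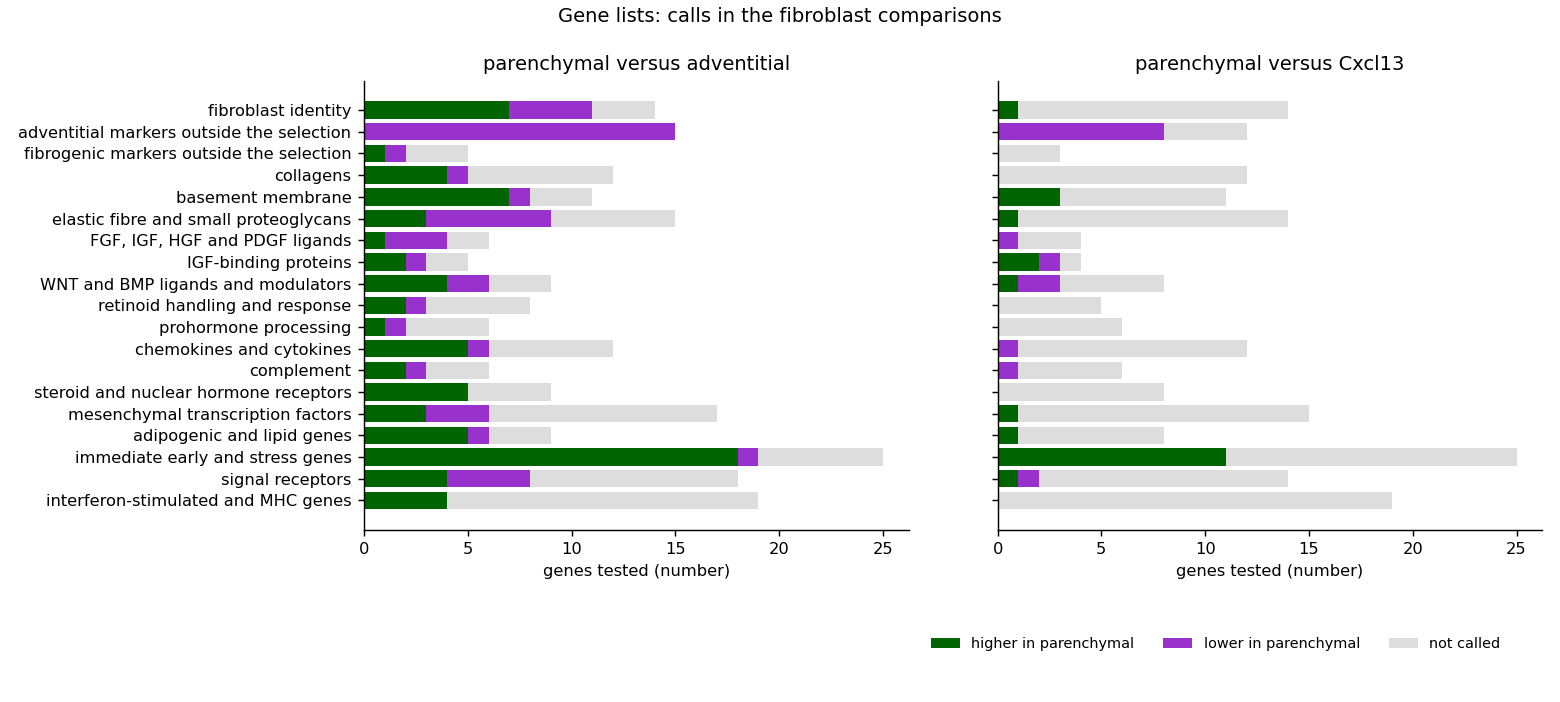
Number of genes tested per list and how many were called higher (green) or lower (purple) in parenchymal fibroblasts against adventitial (left) and *Cxcl13* fibroblasts (right), with genes not called in grey. Immediate early and stress genes have 18 of 25 higher on the left and 11 of 25 on the right, and 15 of 15 adventitial markers are lower on the left. Of these stress gene calls, 11 on the left and 0 on the right held in every alternative.

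Fewer genes were called against *Cxcl13* fibroblasts, whose sums were smaller. In male library 2 their sum held 9363 own UMIs, and free RNA was estimated at 95.9% of all its UMIs. That estimate is for the sum, in which 1 of 11 cells held 38359 of 54628 UMIs. The median cell had 40.3% tear-product UMIs. Levels in that sum under 320 CPM, which a count of 0 allows, rest on few UMIs. Of 3436 genes tested, 70 (2.04%) were called higher and 33 (0.96%) lower in the parenchymal-like cells (median of all genes 0.08). The numbers of calls depended on single libraries, with 6 and 4 of 2474 tested without the female library, 8 and 7 of 4085 without male library 1 and 67 and 53 of 5463 without male library 2. With total UMIs in place of TMM scaling they were 16 and 14, so that 53.3% of calls were higher in place of 68.0%. Of 50 named called genes, *Mgp* and *Crispld2* were the 2 that kept the call in every alternative.

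*Mgp* had 346, 188 and 214 CPM in *Cxcl13* fibroblasts, far under the members' 2025, 1435 and 1321 (2.71 ± 0.37, adjusted p = 1.23e-10), and *Crispld2* 89.6, 157 and 107 (2.53 ± 0.40, adjusted p = 2.21e-07). *Col15a1* was higher in the members (1.46 ± 0.34, adjusted p = 0.00204), as was *Lama2*, with 122, 126 and 107 in the other class (2.13 ± 0.39), and *Lamc3* (2.41 ± 0.47). *Fgf10* was not called (0.28 ± 0.34, adjusted p = 0.912), nor *Igf1* (−0.23 ± 0.31, adjusted p = 0.928) or *Cxcl12* (−0.52 ± 0.30, adjusted p = 0.629). A p above the threshold in sums of this size does not show equal levels.

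Genes with 1 or 2 UMIs in the *Cxcl13* fibroblasts were *Capn6* (pooled ratio 19.4, counting interval 3.46 to 768), *Ccn2*, a matricellular TGFβ target (17.8, 3.18 to 706), *Cd74*, the MHC class II chaperone (15.7, 4.34 to 130), 1 model of *Pakap* (14.5, 2.58 to 576), *Adamts9* (10.7, 2.95 to 89.0), *Ndufa4l2* (10.5, 2.89 to 87.1) and *Cd82* (6.53, 1.79 to 54.3). On the lower side, complement *C4b* had 22.9, 74.5 and 101 CPM against 307, 659 and 320 (−3.18 ± 0.32, adjusted p = 9.85e-20). *C3* had 535, 1060 and 1480 against 3590, 4080 and 2670 (−1.79 ± 0.31), and *Fn1* was at 832, 1350 and 1068 in the other class (−2.78 ± 0.31). *C3* and *Fn1* were thus called lower against both other classes, in comparisons that share the members' sums. *Adgrd1* (−3.84 ± 0.88), *Vit* (−3.39 ± 0.50), *Ly6c1* (−3.10 ± 0.31), the decoy receptor *Il1r2* (−2.86 ± 0.38), *Ebf2* (−2.11 ± 0.49), *Igfbp5* (−1.93 ± 0.35) and *Foxp2* (−1.92 ± 0.42) were lower too.

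By list, 8 of 12 tested adventitial markers were lower than in *Cxcl13* fibroblasts and none higher (median −1.22), and 11 of 25 immediate early and stress genes were higher (median 1.00), led by *Gadd45b* (608, 1042 and 884 CPM against 166, 188 and 214, or 2.13 ± 0.37). With each library left out, 3 of these 8 and 0 of these 11 kept the call. In every alternative, 0 of either list kept it. Basement membrane genes gave 3 of 11 higher and IGF-binding proteins 2 higher and 1 lower of 4. *Rspo3* was higher by 1.27 ± 0.40 (adjusted p = 0.0471), a call that held in 2 of 14 alternatives (adjusted p up to 0.9995). In every other list at most 1 gene was called in each direction, except for *Sfrp2* and *Gdf10* among WNT and BMP genes. *Sfrp2* was called lower (−1.74 ± 0.35) from the female library alone, with 70.5 against 339 CPM. In the male libraries it had 54.1 and 85.1 against 0 and 0, where a count of 0 allows up to 94.2 and 320, so no direction can be read there. The call held in 6 of 10 alternatives.

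Members with and without an *Fgf10* UMI were then compared after thinning to 600 own UMIs. At this depth cells that transcribe *Fgf10* can lack a UMI, so a lack of calls cannot show that no subset exists. The groups held 241 and 966 cells in the female library, 68 and 344 in male library 1 and 33 and 178 in male library 2. Of 2119 genes tested, 0 (0%) were called by edgeR's quasi-likelihood test, 114 (5.38%) had an unadjusted p under 0.05, and DESeq2 also called 0 (11 unadjusted). The smallest adjusted p was 0.0585, for *Sparc*, a collagen-binding matrix protein (−0.36). *Rspo3* was 0.83 ± 0.23 higher in cells with *Fgf10* but was not called (adjusted p = 0.266), nor was *Igf1* (0.36, adjusted p = 0.647). *Mgp* (−0.46, adjusted p = 0.177) and *Sparc* were not called here but were called together in 4 alternatives, namely with doublets left out, without a filter on low counts, with total UMIs and without male library 1, where 7 genes were called.

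The same split by *Penk* held 231 and 976, 271 and 141, and 104 and 107 cells. *Penk* UMIs entered the selection, so that members without them had to pass on *Crabp1* and *Cxcl14*, and nothing is read from this split. Of 1902 genes, 0 (0%) were called by edgeR's quasi-likelihood test, 85 (4.47%) had an unadjusted p under 0.05, and DESeq2 called 0 (5 unadjusted). *Ifi27l2a*, an interferon-induced gene, had the smallest adjusted p (0.179) and was called in 3 alternatives, with mitochondrial UMIs under 5%, with a second thinning seed and with the split made before thinning. With 1 UMI as the limit of either split, a cell without the UMI may still transcribe the gene.

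The female and male libraries are given side by side, with no test. A gene was past the fold where the female level was at least 2 times, or at most 1/2 of, both male levels, with 10 CPM added to each and at least 50 CPM on the higher side. Of 3583 genes at that level, 130 (3.63%) were higher and 86 (2.4%) lower in the female library. The label check came first. *Xist*, the RNA of the inactive X, had 1062, 0 and 0 CPM, at least 157- and 87.3-fold higher in the female library against a limit of 3 UMIs per male library, and the Y-linked *Ddx3y* 0, 111 and 89.2.

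Apart from *Xist* and genes of the epithelium described below, *Igfbp3* and *Cyp26b1* were among the genes of largest fold. *Igfbp3* had 822 CPM (95% Poisson interval 788 to 856) in the female library, 54.1 (34.7 to 80.6) in male library 1 and 36.5 (16.7 to 69.2) in male library 2, and was seen in 32.2, 2.18 and 1.42% of thinned members. *Cyp26b1*, which degrades retinoic acid, had 183 (167 to 199), 11.3 (3.66 to 26.3) and, from 3 UMIs, 12.2 (2.51 to 35.5). The intervals, which cover counting error only, did not overlap between the female and either male library for both genes. *Igfbp5* had 566, 94.8 and 89.2 CPM, the WNT modulator *Dkk3* 102, 15.8 and 16.2, the matricellular *Smoc2* 376, 49.6 and 89.2, and the alarmin *Il33* 411, 102 and 182. The genes from *Dkk3* on lie outside the rule for named genes and were chosen after their values were seen. Epithelial cells had the same direction for *Igfbp5* (321, 117 and 82.8 CPM), *Dkk3* (108, 9.28 and 9.9) and *Smoc2* (290, 43.9 and 29.2). The differences in these genes were thus not particular to the members. In contrast, epithelial *Igfbp3* was 3.18, 0.422 and 0.521 and *Cyp26b1* 1.06, 0 and 0.

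On the male side, *C7*, a component of the complement membrane attack complex, had 0 UMIs in the female library, 275 CPM (229 to 329) in male library 1 and 219 (164 to 286) in male library 2, which was at least 249- and 198-fold higher. It was seen in 0, 14.3 and 13.7% of thinned members, where 0 of 1207 cells allows up to 0.249%. *Nt5e*, the ectonucleotidase CD73, had 3.32, 167 and 126 CPM, the pentraxin *Ptx3* 22.5, 264 and 243, the hyaluronan synthase *Has1* 12.9, 171 and 122, and the protease inhibitor *Serpina3n* 19.6, 149 and 162. Both male libraries thus stood clear of the female one for each of these genes. *Ccl2* had 180, 623 and 738, *Ccl7* 49.8, 280 and 296, *Cxcl10* 176, 512 and 644, and the metallothioneins *Mt1* 1672, 5388 and 5248 and *Mt2* 341, 1225 and 1196, all of them chosen after their values were seen.

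By list, 4 of 13 chemokines and cytokines were past the fold on the male side and 1 on the female side, 2 of 4 IGF-binding proteins and 2 of 5 retinoid genes were on the female side, and none of 3 FGF, IGF, HGF and PDGF ligands was past it. *Hspa1a* and *Hspa1b*, near-identical heat shock genes whose reads can be assigned to either, were on the female side. *Fgf10* (394, 296 and 304 CPM), *Col15a1* (1146, 787 and 644) and *Igf1* (722, 1169 and 681) were not past the fold.

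Some differences ran along with free RNA. The female library held *Pnliprp1* at 350 CPM against 0 and 0, with *BC037156*, *Chia1* and *Cst10*, all of them at 969 to 2753 CPM in its epithelium, and free RNA was estimated at 736, 515, 343 and 123 of their 950, 666, 436 and 363 UMIs. *Ly6f* (1.11, 117 and 207) and *Mrap* (5.9, 115 and 150) were high in the male epithelium as well (9.02, 1046 and 1332, and 0, 489 and 449 CPM). Of 6 acinar markers at the level, 5 (*Aqp5*, *Krt8*, *Krt18*, *Cldn10* and *Fxyd3*) were lower in the female library, where free RNA was the least. The part of free RNA, core and day in the differences between libraries was not tested.

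**Figure D5:**
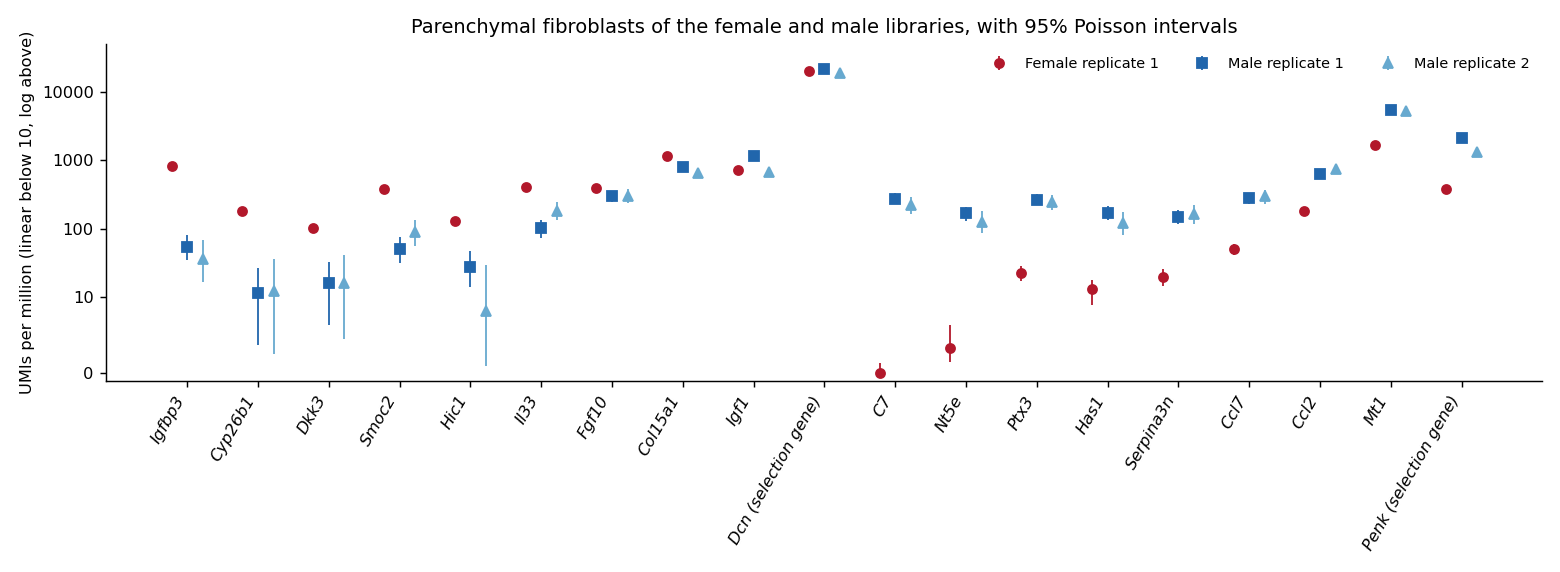
Levels (CPM of own UMIs, linear below 10 and log above) of 19 genes in parenchymal fibroblasts of the 3 libraries, with exact 95% Poisson intervals as bars. *Igfbp3* lies at 822 in the female library and at 54.1 and 36.5 in the male ones, *C7* at 0 against 275 and 219, and *Fgf10* between 296 and 394 in all 3.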

How the data were processed

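Per the labels and the study's methods, glands were digested to single cells and sequenced by droplet 3′ RNA capture. The deposited values are raw UMI counts for each barcode and gene. The authors made them with Cell Ranger 6.1.2 on mm10 per the submitters' processing notes (a header of the unfiltered files names Cell Ranger 4), before the authors' corrections for free RNA and doublets. Counts of 32285 features were used as deposited. Coordinates are from GENCODE M21 (GRCm38).

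The members and the gene lists were chosen with earlier results of these data known. Cells were chosen as given in the results. UMIs were summed per library and class and tested with edgeR 4.0.16 (filterByExpr, TMM, glmQLFit, glmQLFTest) in R 4.3.3, with library and class in the design, and p-values were adjusted by Benjamini-Hochberg over every gene tested (threshold 0.05). DESeq2 1.42.0 was an alternative. The 18 selection genes stayed out of tests. The library is a block because both classes of a library come from the same suspension. Libraries are pools, so p-values refer to a within-library difference and its spread over 3 libraries. The dispersion was estimated with information shared across genes, so a p-value does not rest on a gene's own spread alone. The SE was derived from the log2 difference and the F statistic of the test. The tests were tried on simulated data first.

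Free RNA was taken from uncalled barcodes of 10 to 100 UMIs, of which 80.4, 85.1 and 85.3% of UMIs were on 131 tear-product genes (5 added after the free RNA was seen). Its share in a class was set by the class's tear-product UMIs. Doublets were scored with scrublet in scanpy 1.11.5 up to 0.8% per 1000 called barcodes, kept in the results and left out as an alternative. Python 3.11.15, numpy 2.4.6, scipy 1.17.1 and matplotlib 3.10.9 were used. Depth was 9737, 6422 and 6899 called barcodes, of which 8298, 5582 and 5712 were kept. Intervals are exact (Clopper-Pearson or Poisson, 95%), and a count of 0 is read as a limit of 3 UMIs or cells. Both cover counting error only.

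Named genes were, for each of the 2 class comparisons, the 10 called higher and the 10 called lower of largest fold among genes of the same direction in 3 of 3 libraries and at least 50 CPM in the higher arm of every library (without selection, tear-product, mitochondrial, ribosomal or unnamed gene models). To these came list members (called ones of largest fold and those of highest level), up to 8 called genes per split, and up to 8 genes each way between female and male libraries. Genes named beyond this from lists were chosen after their values were seen. Some genes of the lists are not reported here.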

Additional observations from a re-analysis of the deposited data

Results flagged for a closer look

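In the uncalled barcodes of 10 to 100 UMIs, which no comparison used other than as free RNA, *Cxcl14* had 15 UMIs over all libraries (2, 9 and 4), above the limit of 3 that a count of 0 allows.

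*Sfrp2* in the comparison of parenchymal-like with *Cxcl13* fibroblasts had values on opposite sides in the female and the male libraries. The female log2 difference minus the mean of the male ones was −5.08, with 70.5 against 339 CPM in the female library, and 54.1 against 0 and 85.1 against 0 in the male libraries, where a count of 0 in the *Cxcl13* fibroblasts allows up to 94.2 and 320 CPM. These limits lie above the members' levels, so the male direction is unknown and the value of −5.08 is set by counts of 0. The difference was not tested, and sex cannot be told apart from core or day.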

How the results depend on the processing

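No pairing of female with male libraries was possible, because the labels link no female pool to a male one. The class comparisons were paired within each library. In the main design the library was the block, and without it the calls against adventitial-like cells were 148 higher and 143 lower (338 and 277 with it), and against *Cxcl13* fibroblasts 4 and 2 (70 and 33).

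Against adventitial-like cells, higher and lower calls were 140 and 132 with DESeq2, 171 and 166 with free RNA subtracted, 157 and 153 after thinning to 600 UMIs, and 198 to 305 and 149 to 316 with each library left out, the lowest of both without the female library. Against *Cxcl13* fibroblasts they were 15 and 10 with DESeq2, 16 and 14 with total UMIs, 34 and 20 under 5% mitochondrial UMIs, 21 and 17 with free RNA subtracted, 42 and 19 after thinning, and 6 to 67 and 4 to 53 with each library left out, and 40 were higher without a filter on low counts. Total UMIs moved the median of all genes from 0.03 to 0.10 and from 0.08 to 0.12. *Ccl8* against adventitial-like cells was 0.17 after thinning (adjusted p = 0.9215 by edgeR).

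The *Fgf10* split had 3 calls with total UMIs, 4 without a filter, 3 with doublets left out, 1 with a second thinning seed and 0 to 7 with each library left out (7 without male library 1). The *Penk* split had 3 calls without a filter, 1 under 5% mitochondrial UMIs, 1 after thinning to 1000 UMIs, 2 with the split made before thinning and 2 with a second seed. Between the female and male libraries, 216 genes were past the fold, 488 on the scale of all UMIs and 130 from a level of 100 CPM, both chosen after seeing the data. The causes were not tested.

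Of the named calls against adventitial-like cells, DESeq2 lost 49 of 148, the fit without a library block 55, free RNA subtraction 43 and the fit without the female library 31 of 129. Depth limits the male libraries most, where 29 and 51 adventitial-like and 37 and 11 *Cxcl13* cells carried the sums.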
